A study of Mus musculus with 18 samples.

Results

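The 10 mouse interferon-inducible GTPase genes *Irgm1*, *Irgm2*, *Igtp*, *Iigp1*, *Tgtp1*, *Tgtp2*, *Gbp2*, *Gbp3*, *Gbp5* and *Gbp7* were followed through RNA sequencing of liver and of primary mouse embryonic fibroblasts (MEFs). They were chosen by family membership after the counts of *Tgtp1* in liver had been seen to differ between the genotypes, out of 52091 gene identifiers held in the 2 tables together. The liver contrast therefore took part in the choice, and all liver values of these genes are given as a description with no test. The choice cites no MEF value, and the MEF contrast was tested. RepB-/- animals carried a CRISPR/Cas9 deletion of repeat B of *Xist*, the X-linked RNA that coats the inactive X chromosome, in every cell, and WT animals carried the intact gene. The mice were of the outbred ICR stock. Neither the labels nor the methods give the age or sex of the animals whose livers were sequenced, or whether any were pooled. Each genotype had 3 libraries in liver and 3 in MEFs, and brain libraries were not analysed here. The labels call the MEF samples a primary MEF cell line and give their tissue as tail, and no interferon treatment is named for any sample.

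Interferon-inducible GTPases are large GTP-binding proteins with which a cell defends itself against bacteria and protozoa that live in vacuoles, and interferon gamma is their best known inducer. In the immunity-related GTPases (IRGs), *Irgm1*, *Irgm2* and *Igtp* (also called *Irgm3*) encode regulators that sit on the cell's own membranes and hold the others inactive. *Iigp1*, *Tgtp1* and *Tgtp2* encode effectors that load onto the vacuole membrane. The guanylate-binding proteins (GBPs) encoded by *Gbp2*, *Gbp3*, *Gbp5* and *Gbp7* coat the same vacuoles and the bacteria that escape from them. Interferon gamma signals through the receptor chains *Ifngr1* and *Ifngr2* and the kinases *Jak1* and *Jak2*, and it raises *Irf1*. Much of this response runs through DNA elements of 2 kinds, the interferon-stimulated response element (ISRE) and the gamma-activated site (GAS).

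The genes share a promoter feature, shown here because it is common to members that behaved very differently in liver. RefSeq promoters on GRCm38.p6, from 250 bases before a gene's start to 50 after it, were given for 9 of the 10 genes. *Iigp1* had no entry. All 9 genes held at least 1 ISRE match, searched on both strands as GAAA repeated after a gap of 2 free bases, against 3.99% of the 27025 genes in the same table. For the GAS letters TTCNNNGAA, 6 of the 9 genes held a match (*Gbp5*, *Gbp7*, *Igtp*, *Irgm2*, *Tgtp1* and *Tgtp2*), against 9.55% of genes. The ISRE match nearest to the start is in capitals in each window below, which runs 5′ to 3′ along the gene's strand and stops at the start site at the latest.
Tgtp1, chr11:48992294-48992353, minus strand: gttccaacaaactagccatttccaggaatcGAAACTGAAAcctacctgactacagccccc
Tgtp2, chr11:49064253-49064312, minus strand: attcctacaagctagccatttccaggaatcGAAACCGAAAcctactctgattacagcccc
Irgm2, chr11:58214883-58214942, plus strand: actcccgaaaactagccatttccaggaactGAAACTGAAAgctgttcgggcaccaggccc
Igtp, chr11:58199492-58199551, plus strand: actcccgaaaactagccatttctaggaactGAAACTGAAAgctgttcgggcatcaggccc
Irgm1, chr11:48871421-48871474, minus strand: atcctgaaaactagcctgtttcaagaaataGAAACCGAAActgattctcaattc
Gbp2, chr3:142620574-142620633, plus strand: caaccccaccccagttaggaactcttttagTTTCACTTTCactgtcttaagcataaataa
The 5 IRG windows read the element in the direction of the gene, and the *Gbp2* window holds it on the opposite strand. The match began 77 bases before the start of *Tgtp1*, 70 before *Tgtp2*, 64 before *Irgm2*, 34 before *Igtp*, 24 before *Irgm1* and 59 before *Gbp2*. A match of letters does not show that a factor binds there.

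*Tgtp1* and *Tgtp2* are near-identical copies, which bears on every value of the pair. Their coding sequences, 1245 bases each in the GENCODE M21 annotation, differed at 4 bases and were 99.7% identical. Counted from 1 at the A of the start codon, the differences of *Tgtp2* from *Tgtp1* were G270C, C408T, C729T and C735A, each at the third base of a codon. The stretch of bases 714 to 744 holds the last pair of them, in capitals, and shows how little separates the genes.
Tgtp1: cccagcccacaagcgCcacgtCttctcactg
Tgtp2: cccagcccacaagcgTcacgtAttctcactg
Of all stretches of 150 bases in the *Tgtp1* transcripts, 64.9% occurred letter for letter in a transcript of another gene, nearly all of them in *Tgtp2*, and of those of *Tgtp2* 68.4% occurred in *Tgtp1*. How reads that match both genes were counted is not given in the sources used here, so the split of reads between the pair is uncertain. The other 8 genes shared at most 8.77% of such stretches (*Gbp7*), and *Igtp* and *Irgm2* shared under 1% although their annotated exons overlap by 162 bases on the same strand. Coding identity was 74.4% for *Igtp* and *Irgm2*, 79.6% for *Gbp3* and *Gbp7* and 73.4% for *Gbp2* and *Gbp5*.

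Total counts per library ran from 37682201 to 51542709 in liver and from 11540344 to 20587556 in MEFs. Levels are given as CPM, read counts relative to the library total scaled with edgeR's TMM factors, with mean ± SD over n = 3 libraries. Liver libraries varied far more within a genotype than MEF libraries, with a biological coefficient of variation of 51.2% against 9.06%. Marker genes matched the labelled tissues. Taken on total counts with no scaling factor, 8 hepatocyte markers summed to between 113635 and 160868 CPM in the liver libraries, and 8 fibroblast markers to between 14356 and 20793 CPM in MEFs. Some liver libraries stood apart. The library labelled RepB-/- replicate 2 held 4342 counts of 4 Y-linked genes, against at most 1 in any other liver library, and 4 counts of *Xist* against 14494 to 26345 in the others. This is the pattern of male tissue, although the paper writes males with the deletion as RepB-/Y. The library was kept under its label, and fold changes of the members without it are given below. Both libraries numbered 1 carried markers of fetal liver, 6436 and 5661 CPM summed over 6 genes against 6.0 to 18.6 in the other 4. The 7 erythroid markers, all with a log2 fold change above 0 (median 1.87), summed to 3915, 1776 and 865 CPM in RepB-/- replicates 1, 2 and 3, and 1556, 249 and 217 CPM in WT replicates 1, 2 and 3. Of 10 macrophage markers 7 had a log2 fold change below 0, and *Cd68* (0.75), *Vsig4* (0.38) and *Csf1r* (0.27) lay above 0. All of them overlapped between the genotypes except *Cd163*. It was lower in each RepB-/- library (0.612 to 7.92 CPM) than in any WT library (13.7 to 19.1 CPM). The part of these cell markers in the liver values below was not tested. *Xist* is not listed in the MEF table, and counts per gene in liver cannot show whether repeat B is present in the transcript, so the genotype labels could not be checked on the deleted element.

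*Tgtp1* was the gene that set the liver libraries of the genotypes furthest apart. It maps to chr11:48985327-48994172 on the minus strand (GRCm38), and its counts came to 105, 87 and 65 in RepB-/- replicates 1, 2 and 3, and 2328, 1251 and 1006 in WT replicates 1, 2 and 3. The RepB-/- libraries all lay far below the WT libraries. The level was 1.90 ± 0.173 CPM in RepB-/- and 35.2 ± 15.5 CPM in WT liver, and the means stood 18.5-fold apart, with a fitted log2 fold change of RepB-/- over WT of -4.21. Among RepB-/- libraries the level ran from 1.73 to 2.07 CPM. Among WT libraries it ran from 21.3 to 51.9 CPM, highest in WT replicate 1. The log2 fold change was -4.15 with RepB-/- replicate 2 left out and -3.88 without both libraries numbered 1. In whole liver, fewer cells of a type and less RNA per cell cannot be told apart.

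*Tgtp2*, the neighbouring copy at chr11:49057194-49064206, did not follow *Tgtp1* across the WT libraries. Its counts were 278, 291 and 275 in RepB-/- replicates 1, 2 and 3, and 2888, 304 and 373 in WT replicates 1, 2 and 3. The single WT library numbered 1 was high, and the other WT libraries, at 7.85 and 7.88 CPM, lay within reach of the RepB-/- libraries at 5.49, 5.78 and 8.02 CPM. The fitted log2 fold change was -2.06 over all libraries, -0.29 without WT replicate 1, -1.98 without RepB-/- replicate 2, -0.19 without both libraries numbered 1 and -1.24 with the replicate number as a block. In that WT library 10 macrophage markers summed to 1328 CPM against 484 to 585 in the other 5 liver libraries. None of the 10 was at 0 in every library. On scaled CPM *Marco* stood at 342 there against 8.24 to 52.8 in the others, while *Clec4f*, *Cd68* and *Vsig4* were not highest there. In the same library 10 T and NK cell markers summed to 22.5 CPM against 5.75 to 17.7, and it also carried the fetal liver markers. The part of all these markers in the level of *Tgtp2* was not tested.

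The share of *Tgtp1* in the reads given to the pair moved in the same libraries. *Tgtp1* made up 27.4%, 23.0% and 19.1% of the summed counts of *Tgtp1* and *Tgtp2* in RepB-/- replicates 1, 2 and 3, and 44.6%, 80.5% and 73.0% in WT replicates 1, 2 and 3. The share is made from the *Tgtp1* counts that led to the choice, so it restates that difference and supports nothing further. The 95% Wilson intervals, which cover counting error only, were 23.2% to 32.1% in the highest RepB-/- library and 43.3% to 46.0% in the lowest WT library. Summed to 1 feature, *Tgtp1* and *Tgtp2* came to 7.56, 7.51 and 9.92 CPM in RepB-/- and 116, 40.2 and 29.1 CPM in WT libraries. The log2 fold change of the sum was -2.89.

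**Figure D1:**
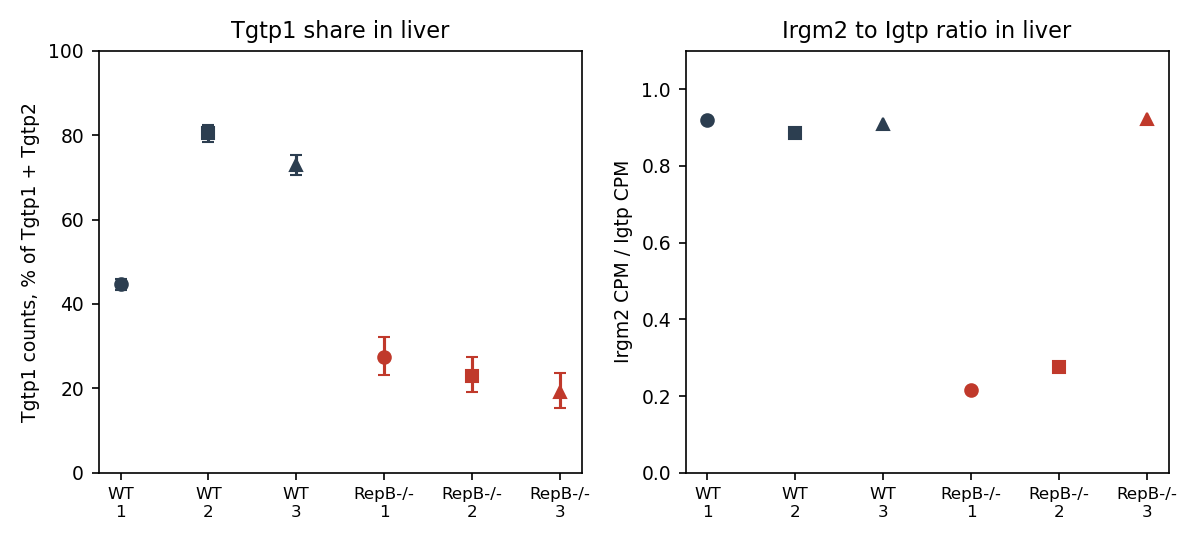
The left panel plots, for each liver library, *Tgtp1* counts as a percentage of *Tgtp1* plus *Tgtp2* counts, with 95% Wilson intervals as bars, and the right panel plots the ratio of *Irgm2* CPM to *Igtp* CPM. The *Tgtp1* share lies between 19.1% and 27.4% in RepB-/- and between 44.6% and 80.5% in WT, while the *Irgm2* ratio is low in RepB-/- replicates 1 and 2 and at the WT level in RepB-/- replicate 3.

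*Iigp1*, the remaining effector and the most abundant IRG in liver, had the smallest fitted difference of the 10 genes. It maps to chromosome 18, and the other 5 IRGs of the 10 genes to chromosome 11. Its level was 153, 244 and 437 CPM in RepB-/- replicates 1, 2 and 3, and 186, 349 and 327 CPM in WT replicates 1, 2 and 3. The lowest and the highest library were both RepB-/-, and replicate 1 was the lowest of each genotype. The log2 fold change was -0.05 over all libraries, 0.01 without both libraries numbered 1 and 0.04 without RepB-/- replicate 2.

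Of the regulators, *Irgm2* (chr11:58199618-58222782) spread widely within RepB-/- liver. Its counts were 360, 880 and 2974 in RepB-/- replicates 1, 2 and 3, and 3372, 4026 and 4046 in WT replicates 1, 2 and 3. RepB-/- replicates 1 and 2, at 7.11 and 17.5 CPM, lay below every WT library, and RepB-/- replicate 3, at 86.7 CPM, lay inside the WT range of 75.2 to 104 CPM. The log2 fold change of -1.25 became -2.83 without RepB-/- replicate 3, -0.91 without RepB-/- replicate 2, -0.87 without both libraries numbered 1 and -2.04 with the replicate number as a block.

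The annotated span of *Igtp* (chr11:58199556-58207591) begins next to that of *Irgm2*, while their promoter windows above begin apart, at chr11:58199492 and chr11:58214883. *Igtp* showed a shallower form of the same order as *Irgm2*. Its level was 32.8, 63.2 and 94.1 CPM in RepB-/- replicates 1, 2 and 3, and 81.7, 117 and 94.0 CPM in WT replicates 1, 2 and 3. RepB-/- replicate 3 again lay inside the WT range, and the log2 fold change was -0.62, or -0.43 without both libraries numbered 1 and again -0.62 without RepB-/- replicate 2. The ratio of *Irgm2* to *Igtp* was 0.217 and 0.277 in RepB-/- replicates 1 and 2, 0.921 in RepB-/- replicate 3, and 0.886 to 0.921 in the WT libraries. In RepB-/- replicates 1 and 2, then, *Irgm2* was lower relative to *Igtp* than in the other 4 libraries.

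*Irgm1* (chr11:48861968-48871683), the third regulator, lies near *Tgtp1* on chromosome 11, and its level was 42.1, 60.1 and 85.6 CPM in RepB-/- replicates 1, 2 and 3, and 53.0, 113 and 95.4 CPM in WT replicates 1, 2 and 3. The groups overlapped, with WT replicate 1 below RepB-/- replicates 2 and 3, while within each of the 3 same-numbered pairs the RepB-/- library was the lower. The log2 fold change was -0.48 over all libraries, -0.52 without both libraries numbered 1 and -0.45 without RepB-/- replicate 2.

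The GBPs, which lie together on chromosome 3, overlapped between the genotypes in liver. *Gbp7* ran at 9.48, 9.04 and 25.0 CPM in RepB-/- replicates 1, 2 and 3, and at 16.1, 28.8 and 23.2 CPM in WT replicates 1, 2 and 3. *Gbp3* ran at 6.38, 5.58 and 18.6 CPM in RepB-/- and 12.3, 9.87 and 10.8 CPM in WT libraries of the same order. In both genes RepB-/- replicates 1 and 2 lay below all WT libraries and RepB-/- replicate 3 did not, as for *Irgm2*. *Gbp2*, at 13.5, 5.90 and 10.7 CPM in RepB-/- and 25.8, 9.53 and 7.16 CPM in WT, was highest in replicate 1 of each genotype. *Gbp5* was the lowest GBP, at 2.47, 1.83 and 2.36 CPM in RepB-/- and 3.12, 2.40 and 2.58 CPM in WT. The log2 fold changes were -0.64 for *Gbp7*, -0.49 for *Gbp2*, -0.28 for *Gbp5* and -0.11 for *Gbp3*. Without both libraries numbered 1 they were -0.61, -0.0072, -0.25 and 0.22 in that order, and without RepB-/- replicate 2 they were -0.40, -0.22, -0.16 and 0.18.

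**Figure D2:**
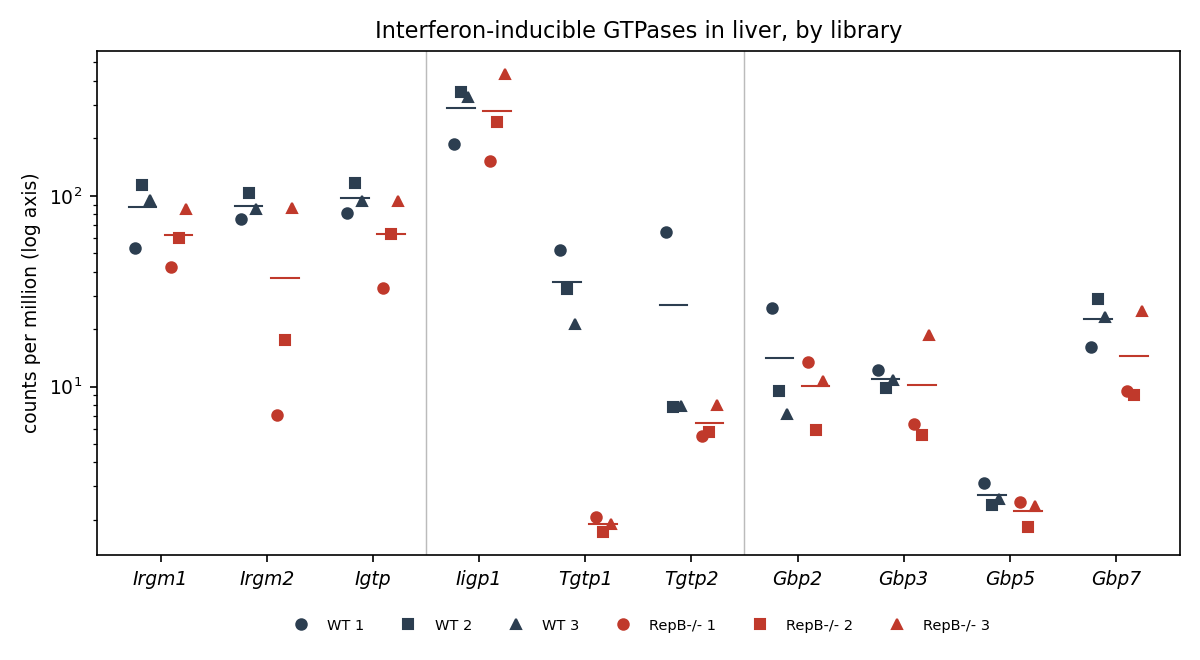
Level of each GTPase in each liver library, in CPM on a log axis, with WT in dark blue, RepB-/- in red, a marker shape for each replicate number and a line at the mean of 3 libraries. Grey lines part regulators, effectors and GBPs. *Tgtp1* alone shows no overlap, with RepB-/- at 1.73 to 2.07 CPM and WT at 21.3 to 51.9 CPM, and *Tgtp2* shows 1 high WT library.

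All 10 genes passed the filter on low counts in liver, and all 10 had a fitted log2 fold change below 0, as did 48.4% of the 16080 genes tested. Their median was -0.56 against 0.01 over all genes. 3 of the 10 (*Tgtp1*, *Tgtp2* and *Irgm2*) were at least 2-fold lower in RepB-/- and 0 at least 2-fold higher, where 2.91% and 4.46% of all genes lay past these folds. *Irgm2* at -1.25 was the nearest inside this fold, and *Gbp7* at -0.64 the nearest outside it. In 1 gene, *Tgtp1*, the RepB-/- libraries all lay lower than the WT libraries, as in 4.66% of all genes. Since the liver contrast took part in the choice of the family, nothing is read from these shares. Without RepB-/- replicate 3, 5 genes were at least 2-fold lower, where 4.77% of all genes were, and 6 did not overlap, where 8.72% of all genes did not. Without both libraries numbered 1, *Tgtp1* was the 1 gene at least 2-fold lower (4.83% of all genes), and 3 genes (*Gbp5*, *Irgm1* and *Tgtp1*) did not overlap, as 22.2% of all genes did not. The same 3 genes were lower in RepB-/- in all 3 same-numbered pairs, as were 14.4% of all genes, and the other 7 in 2 of 3 pairs. *Iigp1*, *Gbp2* and *Gbp3* each lay above 0 when some single library was left out, to at most 0.27.

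Compared per length, as FPKM, the order of the genes in WT liver ran from *Iigp1*, with a median of 97.3, through *Igtp* at 43.2, *Irgm1* at 41.6, *Irgm2* at 22.9 and *Tgtp1* at 10.5, to *Gbp3* at 4.33, *Gbp7* at 4.18, *Gbp2* at 3.38, *Tgtp2* at 2.59 and *Gbp5* at 0.759. In this order *Igtp*, *Irgm1* and *Irgm2* overlapped between neighbours, as did *Gbp3*, *Gbp7*, *Gbp2* and *Tgtp2*, while *Iigp1*, *Tgtp1* and *Gbp5* stood clear of the gene next to them. In RepB-/- liver *Iigp1* was again first, with a median of 69.1 FPKM, and *Tgtp1* was last at 0.538 FPKM, where its range overlapped that of *Gbp5* at 0.547 FPKM. *Tgtp1* thus went from the fifth place in WT to the tenth place in RepB-/- liver, and the other genes kept within 3 places of their WT rank.

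Genes around *Tgtp1* went in either direction in liver. Within 500 kb of *Irgm1*, *Tgtp1* and *Tgtp2*, 16 other genes were tested in liver, with a median log2 fold change of -0.07. 2 of the 16 were at least 2-fold lower in RepB-/- (*Gm12185* and *Mgat1*), against 2.91% of all genes. 2 were at least 2-fold higher (*Zfp62* and *Olfr56*), against 4.46%. All RepB-/- libraries lay below all WT libraries in 0 of the 16 and above them in 1 (*Olfr56*), against 4.66% and 3.38% of all genes. *Gm12185*, a further IRG gene, overlaps the exons of *Tgtp1* by 223 bases on the same strand, so reads there cannot be told apart by position. It stood at 0.158, 0.179 and 0.962 CPM in RepB-/- and 0.112, 3.77 and 3.30 CPM in WT libraries, with WT replicate 1 the lowest of all, where *Tgtp1* was highest. *Ifi47*, the IRG gene beyond *Tgtp2*, had a log2 fold change of -0.03. Near *Igtp* and *Irgm2*, 0 of 15 other genes were 2-fold apart in either direction, and near the GBPs 1 of 7 was, *Gbp2b*, at 3.08, 4.79 and 8.20 CPM in RepB-/- and 12.2, 10.4 and 12.4 CPM in WT libraries. All RepB-/- libraries lay below all WT libraries in 0 of these 15 genes and in 2 of the 7, *Gbp2b* among them.

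**Figure D3:**
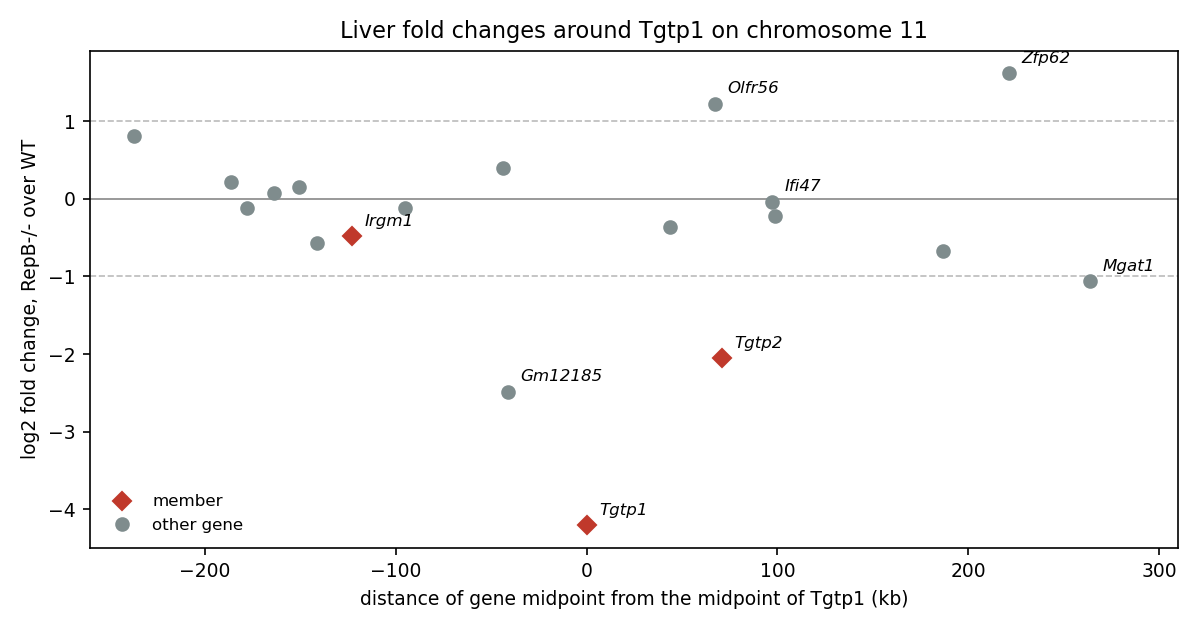
Log2 fold change of RepB-/- over WT in liver for each gene tested around *Tgtp1*, against the distance in kb of its midpoint from that of *Tgtp1*, with members as red diamonds, other genes as grey circles and dashed lines at 2-fold. *Tgtp1* at -4.21, *Gm12185* at -2.48 and *Tgtp2* at -2.06 lie low, while *Ifi47* at -0.03 and *Irgm1* at -0.48 lie near the other genes.

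The genes whose liver pattern was most like that of *Tgtp1* were no GTPases. Among 13269 genes other than the members with a mean of at least 1 CPM, likeness was measured as the root mean square difference in log2 CPM over the 6 libraries, each gene centred on its own mean, and it is a description. The nearest were the ribosomal protein pseudogenes *Rpl3-ps2* and *Rpl3-ps1* on the X chromosome, with a difference of 0.385 for both, and *Gm5586* on chromosome 7, with 0.548. *Rpl3-ps1* ran at 11.02, 10.5 and 7.20 CPM in RepB-/- and 152, 98.5 and 99.2 CPM in WT libraries. All 3 share transcript sequence with other genes, from 30.3% of 150-base stretches in *Gm5586* to 94.5% in *Rpl3-ps1*, so their counts too depend on how such reads were given out. The nearest of the other members, *Tgtp2* and *Irgm2*, stood at 1.56 and 1.57.

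In MEFs, the family was mostly low and no member passed the test. The libraries held 0 counts of *Tgtp1* in each of the 6 libraries, so that its large difference in liver had no counterpart to be measured. The limit that a count of 0 allows, 3 counts, was 0.146 to 0.260 CPM in these libraries. *Tgtp2* had 1, 3 and 0 counts in RepB-/- and 0, 7 and 1 in WT libraries, and *Iigp1* had 5, 15 and 5 in RepB-/- and 5, 7 and 2 in WT. None of the effectors passed the filter on low counts, which 7 of the 10 genes did, and a difference in the effectors was not detectable at this depth. At an adjusted p of 0.05 (quasi-likelihood test of edgeR, Benjamini-Hochberg method, 13306 genes), 0 of the 7 were called higher and 0 lower in RepB-/- MEFs, while 39.1% of all genes tested were called. By edgeR 0 of the 7 lay at an unadjusted p under 0.05, and by DESeq2 0 of 9 did and 0 were called.

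*Gbp2* was the most abundant member in MEFs. Its level was 26.7, 25.2 and 24.8 CPM in RepB-/- replicates 1, 2 and 3, and 22.1, 23.9 and 23.6 CPM in WT replicates 1, 2 and 3. The RepB-/- libraries all lay higher than the WT libraries, as for 26.4% of all genes. Wholly below lay 0 members, where 25.8% of all genes did. In FPKM the genotypes overlapped for *Gbp2*, at 9.44 to 10.2 in RepB-/- and 9.47 to 9.68 in WT libraries. The log2 fold change was 0.14 ± 0.092 (SE), with a 95% interval from -0.06 to 0.34 and an edgeR adjusted p = 0.255. The other 6 genes overlapped between the genotypes.

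*Irgm1*, the regulator with the highest level in MEFs, ran at 17.1, 16.5 and 16.7 CPM in RepB-/- and 15.9, 21.5 and 19.8 CPM in WT libraries. RepB-/- libraries lay close together, and WT replicate 1, the shallowest library, lay below them and the other WT libraries above. Its log2 fold change was -0.19 ± 0.12 (SE), with a 95% interval from -0.45 to 0.07 and an edgeR adjusted p = 0.223. Without WT replicate 1 it was -0.30 and passed the threshold, with an adjusted p = 0.0325. *Irgm2* was higher in the mean, at 4.55 ± 0.918 CPM in RepB-/- and 3.34 ± 0.525 CPM in WT (n = 3 libraries each, edgeR adjusted p = 0.141). The interval of its log2 fold change, from -0.05 to 0.96, reached close to a 2-fold rise. *Igtp* stood at 2.08 ± 0.148 and 1.69 ± 0.501 CPM, with a log2 fold change of 0.29.

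The other GBPs were scarce in MEFs. *Gbp7* stood at 3.15 ± 0.425 CPM in RepB-/- and 2.26 ± 0.934 CPM in WT, with a log2 fold change of 0.45 and an interval from -0.21 to 1.11. *Gbp3* stood at 3.46 ± 0.940 and 2.79 ± 0.269 CPM, with a log2 fold change of 0.30. *Gbp5* stood at 0.614 ± 0.191 and 0.691 ± 0.307 CPM, from 8 to 16 counts per library, and its log2 fold change of -0.13 ± 0.48 (SE) had no settled sign. Of the 7 genes, 5 had a log2 fold change above 0, as did 50.0% of all genes, and their median was 0.29 against 0.0003 over all genes. Per length, *Gbp2* led with a median of 9.55 FPKM in WT and 9.68 FPKM in RepB-/- MEFs, and *Irgm1* followed with 3.51 and 2.75 FPKM, each clear of its neighbours in the order. *Irgm2*, *Gbp3* and *Igtp* came next at 0.814 to 0.979 FPKM in WT, with overlapping ranges.

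**Figure D4:**
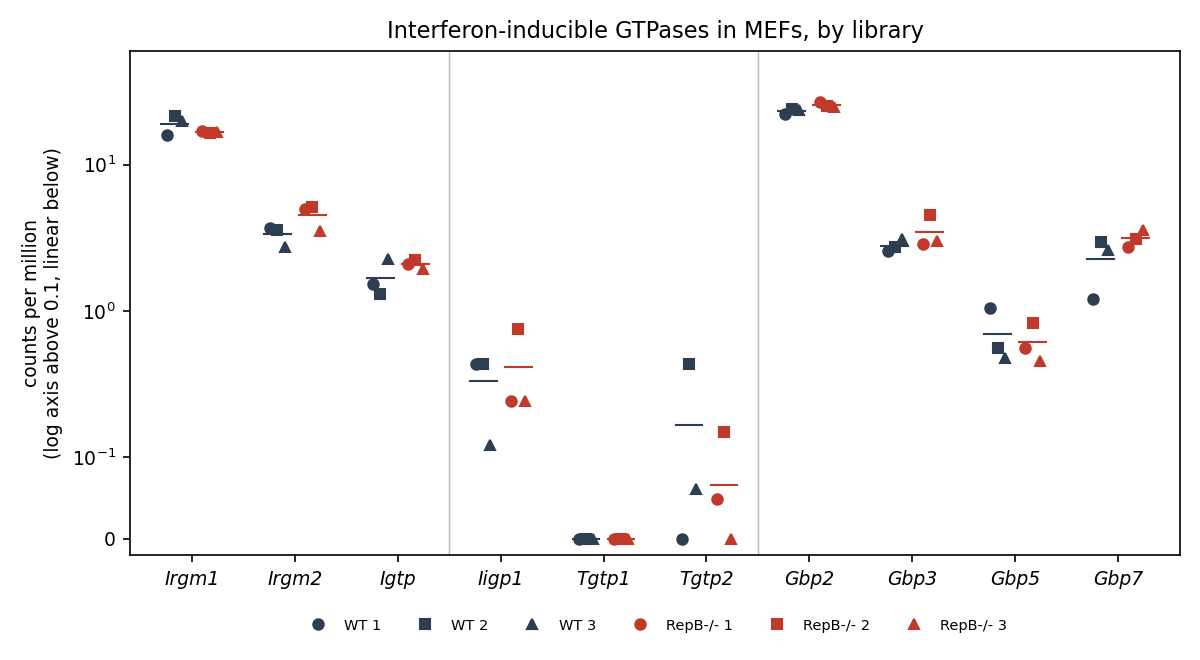
Level of each GTPase in each MEF library, in CPM on an axis that is logarithmic above 0.1 and linear below, with WT in dark blue, RepB-/- in red, a marker shape for each replicate number and a line at the mean of 3 libraries. *Tgtp1* lies at 0 in all 6 libraries, *Gbp2* and *Irgm1* lie highest, and no member separates the genotypes by more than the test's threshold.

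The rest of the family gave the same count in MEFs. Of 24 further IRG and GBP genes, 16 were listed in the MEF table and 3 passed the filter, *Gbp9*, *Irgq* and *Ifi47*. By edgeR 0 of the 3 were called in either direction and 0 lay at an unadjusted p under 0.05, and by DESeq2 1 of 16 lay under it and 0 were called. In liver 15 of the 24 were tested, 4 with a log2 fold change above 0 and 11 below, with a median of -0.11. Among them *Gbp11* went the other way from *Tgtp1*, at 113, 107 and 149 CPM in RepB-/- and 24.6, 107 and 21.2 CPM in WT libraries, with WT replicate 2 at the RepB-/- level. *Gbp11* and *Gbp2b* are named here after their values were seen.

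Genes of the pathway that induces the family passed the test in MEFs in both directions. Of 31 genes of the interferon gamma pathway, 25 were tested, and 9 were called higher and 6 lower in RepB-/- MEFs, where 19.4% and 19.7% of all genes were. The receptor chains moved in opposite directions. *Ifngr1*, the ligand-binding chain, rose from 38.5 ± 1.72 CPM in WT to 46.1 ± 0.779 CPM in RepB-/- (log2 fold change 0.26, edgeR adjusted p = 0.0189). *Ifngr2*, the signalling chain, fell from 71.2 ± 6.44 to 45.2 ± 1.85 CPM (log2 fold change -0.65, edgeR adjusted p = 6.85e-05). *Jak1*, the kinase bound to the ligand-binding chain, rose from 319 ± 16.9 to 574 ± 22.9 CPM (log2 fold change 0.85, edgeR adjusted p = 2.53e-06).

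Downstream of the receptor, *Irf1*, a transcription factor of the family's promoters, rose from 9.36 ± 0.476 to 13.4 ± 0.560 CPM (log2 fold change 0.51, edgeR adjusted p = 0.00521). *Socs3*, a feedback inhibitor of cytokine signalling, rose from 46.7 ± 2.33 to 65.8 ± 7.73 CPM (log2 fold change 0.49, edgeR adjusted p = 0.00102). The genes that fell most were *Cxcl10*, an inflammatory chemokine, with a log2 fold change of -1.67 (edgeR adjusted p = 0.0165), *Cd274*, the immune checkpoint ligand PD-L1, with -1.22 (adjusted p = 0.0202), and *Irf8*, a transcription factor of myeloid cells, with -1.12 (adjusted p = 0.0319), all under 2.5 CPM in every library. *Irf8* missed the threshold by DESeq2 (adjusted p = 0.0726). *Irf8*, *Ifngr1*, *Cd274* and *Cxcl10* each missed it when some single library was left out. Of 8 fibroblast markers 4 were called higher and 1 lower in RepB-/- MEFs, where 19.4% and 19.7% of all genes were. The 8 summed to 18749 to 20793 CPM in RepB-/- and 14356 to 17658 CPM in WT libraries. Markers of other cell types also differed between the MEF genotypes. Of 6 endothelial markers 3 were tested and called lower, *Pecam1* with a log2 fold change of -1.69, *Kdr* with -1.35 and *Cdh5* with -0.64, and the 6 summed to 10.9 to 12.3 CPM in RepB-/- and 24.4 to 30.2 CPM in WT libraries. Of 10 macrophage markers 3 were tested, *Adgre1* (1.65) and *Csf1r* (0.61) called higher and *Cd68* (-0.62) lower, with sums of 24.1 to 28.8 CPM in RepB-/- and 21.5 to 31.8 CPM in WT libraries. The B cell marker *Cd79a* was called lower (-3.19), at under 2 CPM in every library. The part of these cells in the pathway values was not tested. In liver, 27 pathway genes were tested, 8 with a log2 fold change above 0 and 19 below, with a median of -0.26.

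Genes of the autophagy machinery that places these GTPases on vacuoles were also listed in MEFs. All 13 that were listed were tested, of 14 in the list, and 1 was called higher and 4 lower in RepB-/-. Over all genes 19.4% were called higher and 19.7% lower, or 39.1% in either direction. *Sqstm1*, the autophagy receptor p62, stood at 421, 404 and 418 CPM in RepB-/- and 1237, 755 and 795 CPM in WT libraries, without overlap and highest in WT replicate 1 (log2 fold change -1.16, edgeR adjusted p = 5.30e-05). It is named here after its values were seen.

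**Figure D5:**
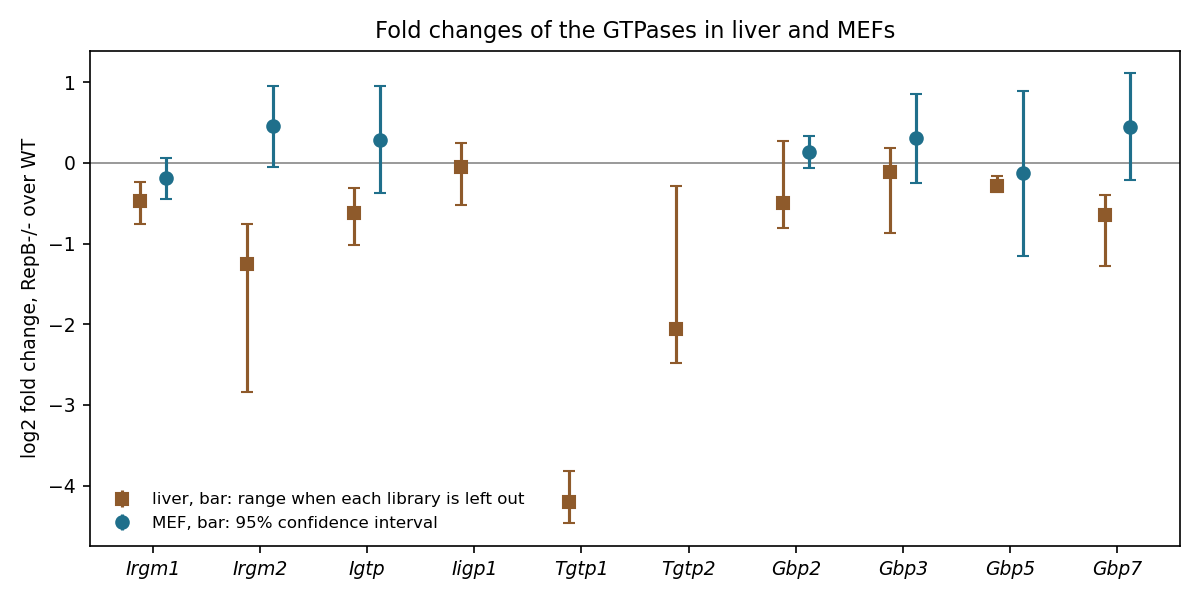
Log2 fold change of RepB-/- over WT for each GTPase in liver (brown squares, bars spanning the values when each library was left out in turn) and in MEFs (blue circles, bars giving the 95% confidence interval of the edgeR fit, 7 genes). Liver values run from -4.21 for *Tgtp1* to -0.05 for *Iigp1*, and every MEF interval includes 0.

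Set side by side, the genes measured in both tissues had log2 fold changes in liver and MEFs of -1.25 and 0.45 for *Irgm2*, -0.62 and 0.29 for *Igtp*, -0.48 and -0.19 for *Irgm1*, -0.64 and 0.45 for *Gbp7*, -0.49 and 0.14 for *Gbp2*, -0.11 and 0.30 for *Gbp3* and -0.28 and -0.13 for *Gbp5*. The 2 tissues were counted with different annotations, and a difference between them was not tested.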

How the data were processed

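PolyA RNA libraries were sequenced by the authors, who deposited raw read counts per gene and FPKM values for MEFs (GRCm39 coordinates) and liver (GRCm38 coordinates). The methods name Cutadapt, Hisat2 and DESeq2 for MEFs, while the submitters' notes list Trim Galore 0.4.1, STAR 2.7.0, HTSeq 0.12.4, DESeq2 and deepTools 3.5.0 without roles. The 6 TPM columns were not used. Letters B and W in the titles were read as RepB-/- and WT. Nothing says that replicates came from separate animals or cultures, so p-values measure the spread between these libraries, which may be technical.

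Counts were fitted per tissue in edgeR 4.0.16 (R 4.3.3) with TMM, filterByExpr and the quasi-likelihood test, and called at a Benjamini-Hochberg adjusted p under 0.05. The fit was tested on simulated counts. Alternatives were DESeq2 1.42.0, its size factors in edgeR, no filter beyond 1 count, *Tgtp1* and *Tgtp2* summed, a replicate block and leaving out libraries. Deviations of same-numbered liver libraries correlated at 0.71, 0.36 and 0.37. Each was taken from the mean of 3 libraries of a genotype, and both libraries numbered 1 carried fetal liver markers. These values therefore cannot show whether the numbers pair the liver samples. The main fit used no pairing, and same-numbered liver pairs are given as a description. Members and gene lists were chosen with earlier results of these data known, MEF results among them, although the reason given for the members is the liver level of *Tgtp1* alone. Beyond the 10 members, the rule named the receptors, *Irf1* and the 3 genes of largest change called in each direction from the pathway, the 3 of largest change called from the other family genes, and the 3 genes most like *Tgtp1*. A further pathway gene that the rule names is not reported here. Sequences are from RefSeq (GRCm38.p6) and GENCODE M21.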

Additional observations from a re-analysis of the deposited data

How the results depend on the processing

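The log2 fold change of *Tgtp1* in liver ran from -4.47 to -3.82 over single libraries left out, and was -2.89 with *Tgtp1* and *Tgtp2* summed. Every RepB-/- library lay far below every WT library, so leaving a library out could not reverse its direction. These values therefore add no support to the difference that led to the choice. Liver members at least 2-fold lower numbered 2 to 5 with single libraries left out (3.27% to 6.54% of all genes) and 1 with both libraries numbered 1 left out (4.83%), and members without overlap 1 to 6 (6.41% to 15.8%) and 3 (22.2%). With the replicate block, 3 liver members were at least 2-fold lower. In MEFs, members called lower numbered 0 to 1 with single libraries left out (1 without WT replicate 1, *Irgm1*), and other family genes called lower 0 to 1 (1 without WT replicate 3). The cause of these changes was not tested. *Gbp5* in MEFs ran from -0.34 to 0.25 with single libraries left out, above 0 at 0.05 without RepB-/- replicate 3 and at 0.25 without WT replicate 1. MEF deviations of the same number correlated at -0.01, -0.04 and -0.0035. These libraries thus showed no shared deviation by number, which does not settle whether the numbers pair them. The block left 0 members called, 8 pathway genes higher and 5 lower, and 5006 genes called in place of 5202. *Irf8* missed the threshold under it (adjusted p = 0.0527). Members at under 20 counts in every MEF library, the effectors and *Gbp5*, are limited by depth.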
